A study of Mus musculus with 8 samples.

Results

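The genes described here encode 9 subunits of Polycomb Repressive Complex 1 (PRC1): the chromobox genes Cbx2, Cbx6, Cbx7 and Cbx8, the ring finger genes Ring1, Rnf2, Bmi1 and Pcgf2, and the polyhomeotic gene Phc1. They were taken by gene symbol from a table of 36808 genes, and all 9 were found once. The list was chosen with earlier results of these data known. RNA was sequenced from mouse embryonic stem cells (ESCs) and from cells at day 5 of spinal motor neuron (SMN) differentiation, in wild-type lines and in lines with mutations in PRC2, to ask how PRC2 shapes gene expression as cells commit to a lineage. The values are FPKM (fragments per kilobase of transcript, scaled to the mapped fragments of the library), which take account of transcript length and so allow levels to be set side by side between genes. There were 8 libraries, 4 of ESCs and 4 of day 5 cells, with 1 library per condition. No spread between replicates of a condition can therefore be given, a difference between single libraries has no test, and neighbouring values in an order of levels cannot be told apart by their error. The change from ESC to day 5 was tested across the 3 lines that gave both stages.

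The E14 line (129/Ola background) gave a wild-type ESC library and a wild-type day 5 library, and CJ7 (129/S) gave a further wild-type ESC library. Suz12GT (129/Ola) is a gene-trap line whose SUZ12 is fused to β-galactosidase and which keeps reduced H3K27me3, and it was analysed at day 5 only. Suz12delta (C57/BL6) carries a truncated SUZ12, Eednull (BALB/cR1) carries a point mutation in Eed, both have almost no H3K27me3, and each gave an ESC and a day 5 library. ESCs were grown with serum and LIF on irradiated fibroblast feeders, which were removed by a brief plating step. For differentiation LIF was withdrawn and retinoic acid and an agonist of Sonic hedgehog signalling were added, and the cells were collected before terminal differentiation. Suz12GT and wild-type E14 share a background. In every other comparison of a mutant with a wild-type line, genotype and background cannot be told apart. The CJ7 library was made and sequenced together with 1 other library, which a column name shows to be Eednull ESC, so that the change from ESC to day 5 in Eednull and the comparison of Eednull with E14 ESCs both cross that batch.

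PRC1 places a single ubiquitin on histone H2A and compacts chromatin at genes that control development. Canonical PRC1 joins a RING1 E3 ligase, a PCGF protein, a polyhomeotic protein and a CBX protein, whose chromodomain reads the H3K27me3 that PRC2 writes, while variant PRC1 carries RYBP or YAF2 in place of CBX. In ESCs CBX7 is known as the main CBX protein of canonical PRC1, and CBX2 and CBX8 are among those known to take its place as the cells differentiate.

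Cbx2 and Cbx8 lie beside each other on chromosome 11. In NCBI build 37 (GENCODE vM1 annotation), Cbx2 (ENSMUSG00000025577) spans chr11:118884276-118892584 on the plus strand and Cbx8 (ENSMUSG00000025578) spans chr11:118897619-118902283 on the minus strand, 5034 bases apart. Cbx6 (ENSMUSG00000089715, chr15:79654326-79665118) and Cbx7 (ENSMUSG00000053411, chr15:79746237-79801549) are 81118 bases apart on chromosome 15, both on the minus strand. The remaining 5 genes are spread over 5 chromosomes, with Pcgf2 (ENSMUSG00000018537) at chr11:97550137-97561811, Ring1 (ENSMUSG00000024325) at chr17:34157737-34161625, Rnf2 (ENSMUSG00000026484) at chr1:153316536-153347953, Bmi1 (ENSMUSG00000026739) at chr2:18598645-18608256 and Phc1 (ENSMUSG00000040669) at chr6:122267749-122290579. Of these 5, Bmi1 is on the plus strand and the others are on the minus strand.

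The promoters of the Cbx genes that changed most between stages are shown because their CG dinucleotides mark the kind of CpG-rich start at which Polycomb proteins are known to gather. Each is the 250 bases before the start of the coding transcript in NCBI build 37, read on the gene's strand, with each CG in capitals: Cbx2 at chr11:118884026-118884275, Cbx7 at chr15:79763083-79763332 and Cbx8 at chr11:118902284-118902533. The Cbx7 window belongs to the transcript of its coding annotation, which starts inside the annotated gene span. No annotated exon lies in any of the 3 windows.
Cbx2: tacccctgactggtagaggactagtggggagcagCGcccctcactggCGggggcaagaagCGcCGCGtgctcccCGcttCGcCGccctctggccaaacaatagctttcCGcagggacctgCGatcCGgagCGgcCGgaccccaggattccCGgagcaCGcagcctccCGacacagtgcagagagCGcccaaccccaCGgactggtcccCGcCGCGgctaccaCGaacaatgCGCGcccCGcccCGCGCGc
Cbx7: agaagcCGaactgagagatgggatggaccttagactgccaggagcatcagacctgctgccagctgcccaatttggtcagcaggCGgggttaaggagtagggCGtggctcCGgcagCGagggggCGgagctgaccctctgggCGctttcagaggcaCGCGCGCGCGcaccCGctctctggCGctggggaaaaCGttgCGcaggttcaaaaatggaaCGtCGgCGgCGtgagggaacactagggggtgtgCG
Cbx8: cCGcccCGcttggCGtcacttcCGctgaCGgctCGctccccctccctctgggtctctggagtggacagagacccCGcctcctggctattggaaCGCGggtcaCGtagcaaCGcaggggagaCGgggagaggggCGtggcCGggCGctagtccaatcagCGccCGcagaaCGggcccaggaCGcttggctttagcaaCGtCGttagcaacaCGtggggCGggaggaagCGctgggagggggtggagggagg

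The motif CG, which is its own reverse complement, was counted in the same window of 19466 protein-coding genes, where the median was 10 and 93.3% of promoters held at least 1. Cbx2 had 28, a number reached by 9.62% of promoters, Cbx8 had 24, reached by 15.7%, and Cbx7 had 21, reached by 22.2%. Phc1 had the most of the 9, with 39, reached by 2.13% of promoters. Its window (chr6:122289664-122289913), like that of Cbx7, lies inside the annotated gene span, and it was not searched for annotated exons. Cbx6 was the exception, with 7, below the median. Rnf2 (31), Ring1 (30), Pcgf2 (25) and Bmi1 (21) were all above the median. The counts describe these letters only, since no binding or methylation data were used here.

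The label of the ESC libraries was met by their markers: the summed level of 10 ESC markers was 522 to 1233 FPKM in the 4 ESC libraries and 22.0 to 40.8 FPKM in the 4 day 5 libraries. Markers of the motor neuron lineage (10 genes) summed to 228 FPKM in E14 and 235 FPKM in Suz12GT at day 5, but to 20.7 FPKM in Suz12delta and 19.5 FPKM in Eednull at day 5, so these last libraries are called day 5 cells here and not motor neuron precursors. Tubb3, a neuronal tubulin among these markers, was listed at 0 in all 8 libraries. Fibroblast markers (12 genes) summed to 98.7 FPKM in E14, 124 in CJ7, 594 in Suz12delta and 289 in Eednull ESCs, and to between 6.49 and 133 FPKM at day 5. All 12 were at least 2-fold higher in Suz12delta than in E14 ESCs, and 6 of 12 were in Eednull. Endoderm markers (6 genes) summed to 1.11 to 24.0 FPKM in ESCs and 3.72 to 38.4 FPKM at day 5, highest in Suz12delta at day 5. In bulk RNA, fewer cells of a type and less RNA per cell cannot be told apart. Suz12, the gene altered in the Suz12 lines, was at 6.21 FPKM in Suz12delta ESCs against 35.7 to 53.1 FPKM in the other ESCs, while at day 5 it was at 10.3 FPKM in Suz12GT, 11.6 in Suz12delta, 16.2 in E14 and 17.6 in Eednull. Eed was at 42.4 FPKM in Eednull ESCs and 11.5 FPKM in Eednull day 5 cells, within the range of the other libraries, and a gene-level value does not check a point mutation.

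Cbx7, the chromodomain subunit known best from ESCs, was lower at day 5 than in ESCs of the same line in each of the 3 lines with both stages. It was at 61.5 FPKM in E14, 39.8 in CJ7, 28.8 in Eednull and 13.5 in Suz12delta ESCs, and at 20.5 FPKM in Eednull, 18.8 in E14, 8.51 in Suz12delta and 6.49 in Suz12GT at day 5. It was highest in the wild-type ESCs, and only the Suz12delta ESC library lay within the range of the day 5 libraries. In E14, Cbx7 moved from the 96.3 percentile of all genes in ESCs to the 88.4 percentile at day 5, and in Suz12GT at day 5 it stood at the 73.8 percentile.

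Cbx2, whose protein compacts chromatin, had the opposite course. It was at 4.55 FPKM in E14, 4.16 in CJ7, 2.73 in Suz12delta and 6.21 in Eednull ESCs, and at 11.2 FPKM in E14, 9.99 in Suz12GT, 17.1 in Suz12delta and 13.97 in Eednull at day 5. All 4 day 5 libraries were above all 4 ESC libraries, and both Suz12delta libraries were at the ends of the range, lowest as ESCs and highest at day 5.

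Cbx8 was the lowest of the 9 genes in each of the 4 day 5 libraries and in 3 of the 4 ESC libraries, since Cbx6 was listed at 0 in CJ7. It was at 0.133 FPKM in E14, 0.592 in CJ7, 0.911 in Eednull and 1.90 in Suz12delta ESCs, and at 2.38 FPKM in Suz12GT, 2.72 in E14, 3.70 in Eednull and 5.02 in Suz12delta at day 5. The stages did not overlap. The E14 ESC value is close to the lowest level used in the ratios (0.1 FPKM), so the size of any ratio to it depends on the pseudocount.

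Cbx6, which encodes a further chromodomain subunit, kept a steady level outside CJ7. It was at 12.9 FPKM in E14, 11.6 in Suz12delta and 13.7 in Eednull ESCs, and at 14.9 FPKM in E14, 18.1 in Suz12GT, 14.2 in Suz12delta and 15.6 in Eednull at day 5. It was listed at 0 in CJ7. The table gives Cbx6 the same locus as Nptxr and Npcd, of which Nptxr was also listed at 0 in CJ7 but at 0.609 to 7.20 FPKM in the other 7 libraries and Npcd at 0 in all 8. Cbx6 was among 5 genes listed at 0 in CJ7 whose other 7 values all reached 10 FPKM, so this 0 was not read as absence and no ratio to it is given.

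**Figure D1:**
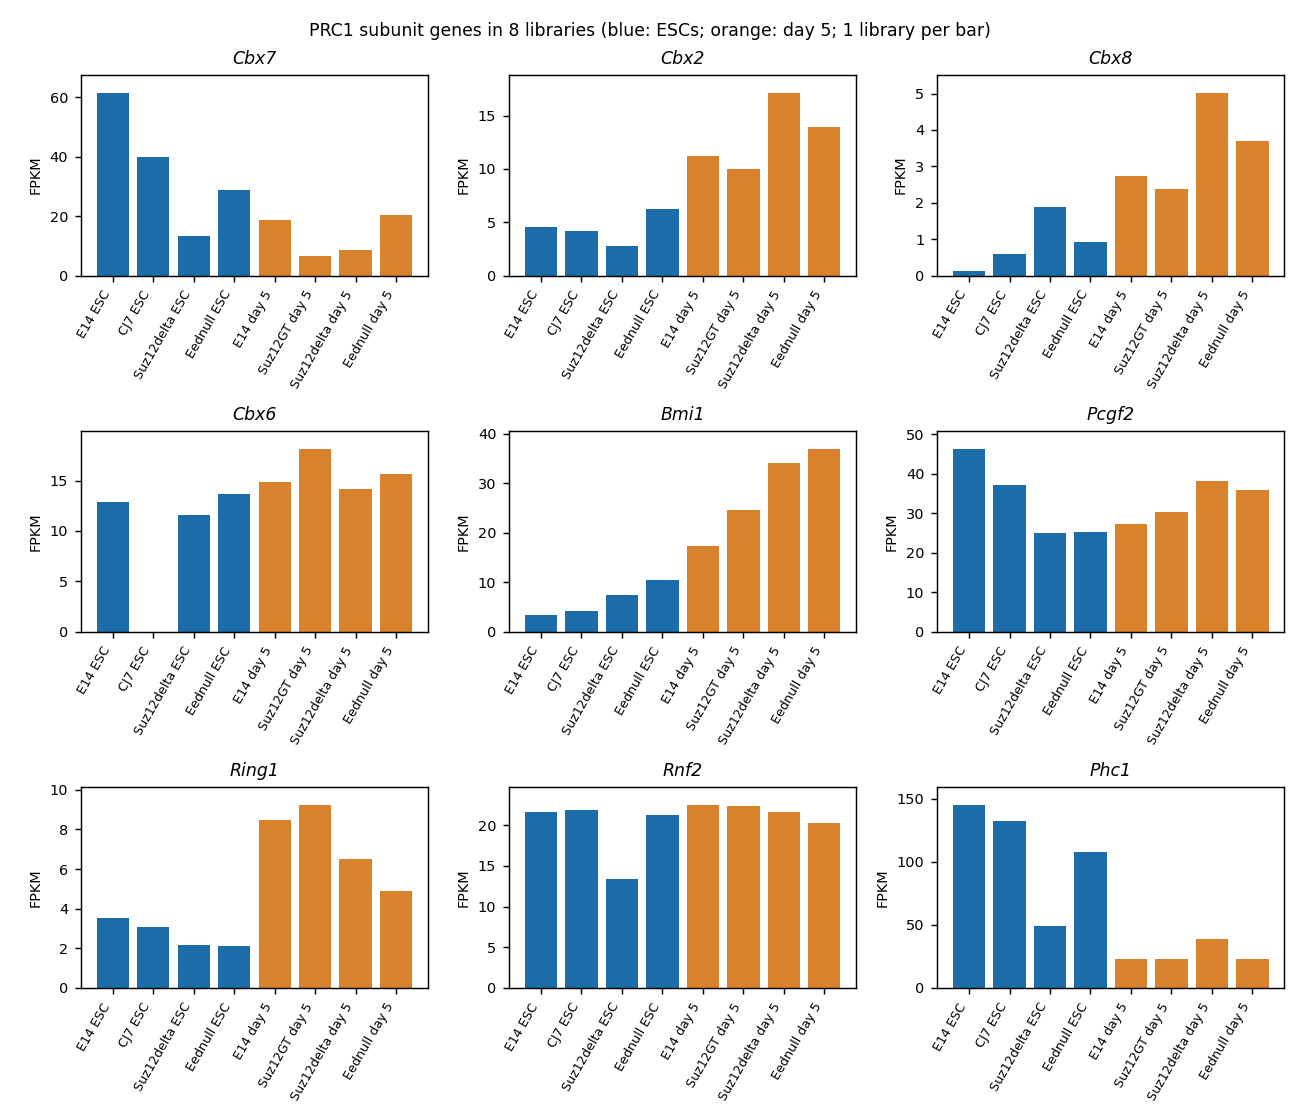
FPKM of each of the 9 PRC1 genes (vertical axes, each starting at 0 with its own scale) in the 4 ESC libraries (blue) and the 4 day 5 libraries (orange), with 1 bar per library and no error bars because each condition has 1 library. Cbx7 and Phc1 are highest in wild-type ESCs at 61.5 and 145 FPKM, Cbx2, Cbx8, Ring1 and Bmi1 are higher in every day 5 library than in every ESC library, and Cbx6 is listed at 0 in CJ7.

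Set against each other within a library, where scaling between libraries has no part, Cbx7 held a larger share of the Cbx RNA in ESCs than at day 5 in each line with both stages. Cbx7 made up 77.8% of the summed FPKM of Cbx2, Cbx6, Cbx7 and Cbx8 in E14 ESCs and 39.5% in E14 day 5 cells. In Eednull the shares were 58.1% and 38.1%, in Suz12delta 45.4% and 19.0%, and in Suz12GT at day 5 the share was 17.5%. CJ7 ESCs had 89.3%, with Cbx6 at 0. With Cbx6 left out of the sum in every library, Cbx7 held 92.9% in E14, 89.3% in CJ7, 80.2% in Eednull and 74.4% in Suz12delta ESCs, and 57.4% in E14, 53.8% in Eednull, 34.4% in Suz12GT and 27.7% in Suz12delta at day 5. With or without Cbx6 in the sum, the ESC and day 5 libraries did not overlap in the Cbx7 share.

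The rest of the Cbx RNA was divided unevenly between lines. Cbx2 took 5.76% in E14 ESCs and 23.6% in E14 day 5 cells, and it reached its highest share, 38.2%, in Suz12delta at day 5. Cbx6 held the highest share in Suz12GT at day 5, with 49.0%, and there its own level (18.1 FPKM) was also the highest of the 8 libraries. Cbx8 took 0.169% in E14 ESCs and 5.73% at day 5, and 6.40% and 11.2% in Suz12delta. In Suz12delta ESCs, Cbx7 at 13.5 FPKM and Cbx6 at 11.6 FPKM were nearly level.

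**Figure D2:**
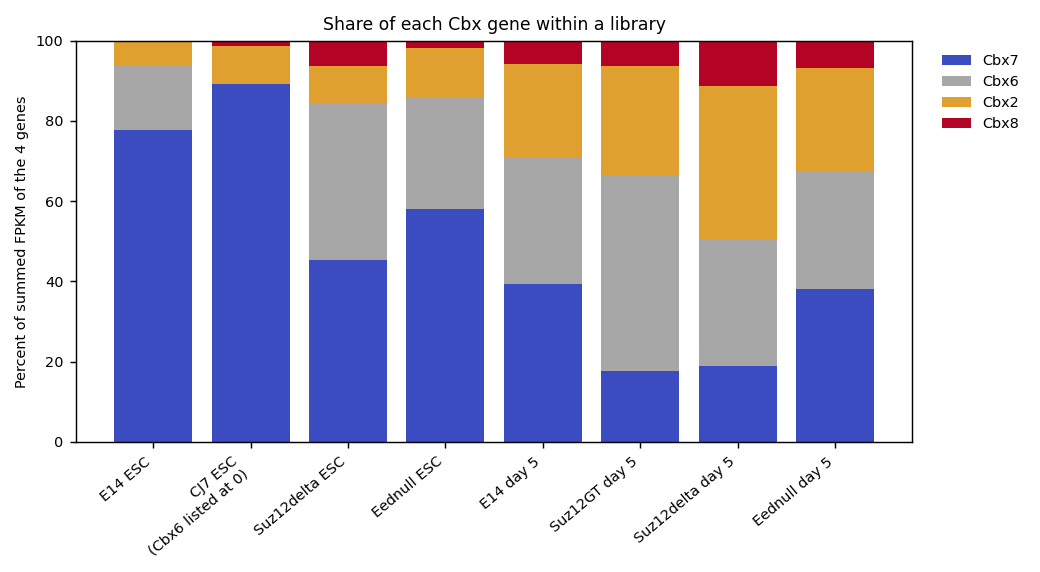
Percent of the summed FPKM of Cbx2, Cbx6, Cbx7 and Cbx8 that each gene holds (vertical axis) in each of the 8 libraries (horizontal axis), 1 library per bar. The blue part, Cbx7, covers 77.8% in E14 ESCs and 39.5% in E14 day 5 cells, and it is smallest in Suz12GT (17.5%) and Suz12delta (19.0%) at day 5, while the CJ7 bar lacks Cbx6, which is listed at 0 there.

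RING1 and RING1B (encoded by Ring1 and Rnf2) are the alternative E3 ligases of PRC1. Rnf2 was nearly level, at 21.6 FPKM in E14, 21.9 in CJ7 and 21.3 in Eednull ESCs and at 22.5 FPKM in E14, 22.4 in Suz12GT, 21.6 in Suz12delta and 20.2 in Eednull at day 5, with Suz12delta ESCs apart at 13.5 FPKM. Ring1 was at 3.54 FPKM in E14, 3.10 in CJ7, 2.17 in Suz12delta and 2.12 in Eednull ESCs, and at 8.47 FPKM in E14, 9.22 in Suz12GT, 6.50 in Suz12delta and 4.87 in Eednull at day 5. Every day 5 value of Ring1 was above every ESC value, and at both stages the Suz12delta and Eednull libraries were the lowest. Rnf2 remained the larger of the pair in all 8 libraries, with 85.9% to 91.0% of their sum in ESCs and 72.6% in E14, 70.8% in Suz12GT, 76.9% in Suz12delta and 80.6% in Eednull at day 5.

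BMI1 and MEL18 (encoded by Bmi1 and Pcgf2) are the PCGF proteins of canonical PRC1. Bmi1 was at 3.34 FPKM in E14, 4.16 in CJ7, 7.35 in Suz12delta and 10.5 in Eednull ESCs, and at 17.3 FPKM in E14, 24.7 in Suz12GT, 34.2 in Suz12delta and 36.96 in Eednull at day 5. At both stages the mutant libraries lay above the wild-type ones, and the stages did not overlap. Pcgf2 was at 46.3 FPKM in E14, 37.1 in CJ7, 25.0 in Suz12delta and 25.2 in Eednull ESCs, and at 27.3 FPKM in E14, 30.3 in Suz12GT, 38.2 in Suz12delta and 35.9 in Eednull at day 5. It was thus higher in ESCs than at day 5 in E14 and lower in ESCs than at day 5 in Suz12delta and Eednull. The share of Pcgf2 in the pair was 93.3% in E14, 89.9% in CJ7, 77.2% in Suz12delta and 70.5% in Eednull ESCs, and 61.2% in E14, 55.1% in Suz12GT, 52.8% in Suz12delta and 49.3% in Eednull at day 5. The order of the lines was the same at both stages, with E14 highest and Eednull lowest. Among all 6 Pcgf genes, which include the PCGF proteins of variant PRC1, the share of Pcgf2 was 29.3% to 46.5% in ESCs and 30.7% to 33.0% at day 5, and there the stages overlapped.

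Phc1 encodes a polyhomeotic protein, whose SAM domain links PRC1 complexes into larger assemblies. It was at 145 FPKM in E14, 133 in CJ7, 107 in Eednull and 49.3 in Suz12delta ESCs, and at 23.1 FPKM in E14, 23.3 in Suz12GT, 22.7 in Eednull and 38.8 in Suz12delta at day 5. The stages did not overlap, but the Suz12delta libraries were the lowest of the ESCs and the highest at day 5. Its relative Phc2 was at 9.32 FPKM in E14 ESCs and 54.4 FPKM in E14 day 5 cells, and Phc3 at 3.83 and 4.63 FPKM. Phc1 held 91.7% of the sum of the 3 Phc genes in E14 and 92.5% in CJ7 ESCs, against 28.1% in E14 at day 5, where Phc2 held 66.2%. In Suz12delta the share of Phc1 was 68.0% in ESCs and 40.5% at day 5, in Eednull 87.7% and 34.6%, and in Suz12GT at day 5 it was 26.9%. These Phc shares were computed after the values had been seen.

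**Figure D3:**
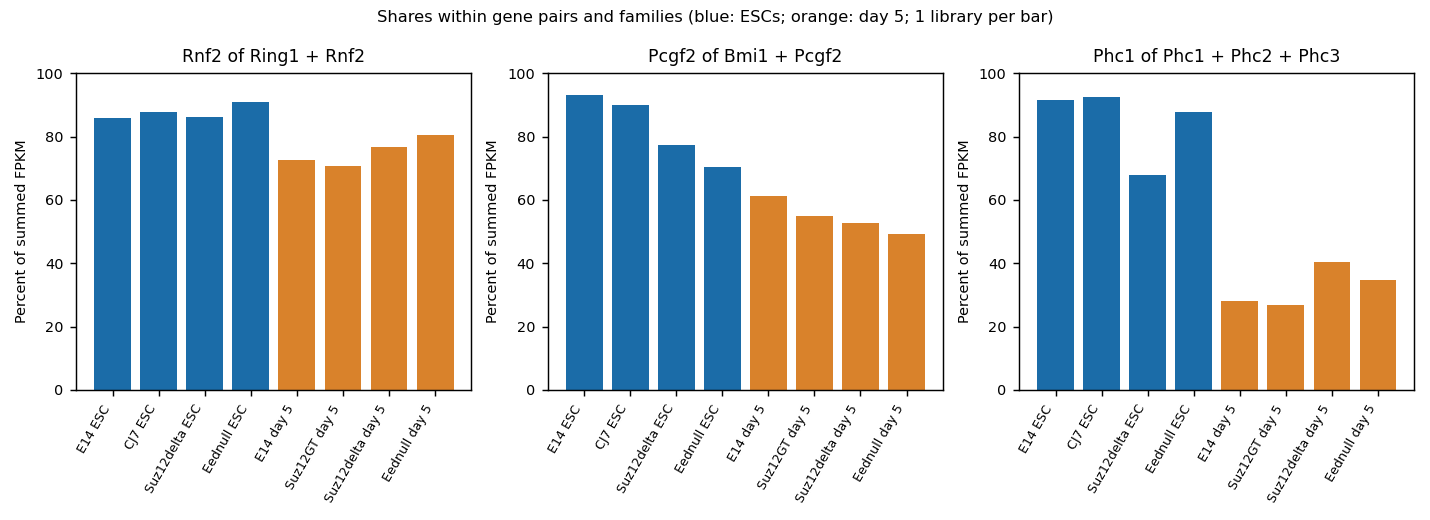
Percent of summed FPKM (vertical axes, 0 to 100) held by Rnf2 in the pair Ring1 and Rnf2, by Pcgf2 in the pair Bmi1 and Pcgf2, and by Phc1 among Phc1, Phc2 and Phc3, in 4 ESC libraries (blue) and 4 day 5 libraries (orange), 1 library per bar. In all 3 panels every ESC bar is above every day 5 bar, with the widest step for Phc1, from 68.0% or more in ESCs to 40.5% or less at day 5.

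To compare stages and lines, log2 ratios of FPKM with a pseudocount of 0.1 were taken for genes that reached 0.1 FPKM in either library of a pair, and a gene was called where it differed at least 2-fold. In E14, 4 of the 9 genes were called higher at day 5, as were 18.3% of all genes, and 2 of 9 were called lower, as were 25.8% of all genes. Shares of all genes past 2-fold, here and below, include genes listed at 0 in 1 library of the pair. The counts of named genes leave such genes out. Among genes above 0 in both E14 libraries, 15.3% were higher and 21.3% lower. Cbx8 (log2 ratio 3.60), Bmi1 (2.34), Cbx2 (1.28) and Ring1 (1.24) were higher, and Phc1 (-2.64) and Cbx7 (-1.71) were lower. Pcgf2 (-0.76), Cbx6 (0.20) and Rnf2 (0.06) stayed within 2-fold. The median of the 9 was 0.20 and that of all genes -0.20. Expressed as folds of the deposited values, Bmi1 was 5.18 times higher, and Phc1 and Cbx7 were 6.26 and 3.28 times lower. Fibroblast markers were lower at day 5 as well, all 11 of those above 0 in both libraries by at least 2-fold, and their part was not tested.

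In Suz12delta, 4 of 9 genes were called higher at day 5 against 26.9% of all genes, and 0 of 9 lower against 12.6%. These shares were 24.6% and 9.65% among genes above 0 in both libraries. The called genes were again Cbx2 (2.61), Bmi1 (2.20), Ring1 (1.54) and Cbx8 (1.36). Here the whole distribution was shifted, since the median of all genes was 0.43 as deposited and 0.06 after scaling each library to its 75th percentile. With that scaling Cbx8 was at 0.99, just under 2-fold, Cbx7 changed from -0.66 to -1.04 and so was called lower, Cbx6 changed from 0.30 to -0.09, and the shares of all genes became 17.7% higher and 17.2% lower. Phc1 was at -0.34 as deposited and -0.73 with scaling, in either case within 2-fold. The fibroblast markers were lower at day 5 in this line too, 6 of 12 of them at least 2-fold (median -1.39), and their part in these ratios was not tested.

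In Eednull, 4 of 9 genes were called higher at day 5 against 18.4% of all genes, and 1 of 9 lower against 24.8%. Of genes above 0 in both libraries, 16.2% were higher and 16.6% lower. Bmi1 (1.80), Cbx8 (1.91), Ring1 (1.17) and Cbx2 (1.16) were higher and Phc1 (-2.24) was lower, while Cbx7 (-0.49) and Pcgf2 (0.51) were within 2-fold. The same 4 genes, Cbx2, Cbx8, Ring1 and Bmi1, were therefore called higher in each of the 3 lines with both stages, with the exception of Cbx8 in Suz12delta under 75th-percentile scaling or the median of ratios. Cbx7 was lower at day 5 in each of these lines, by 1.71 on the log2 scale in E14, 0.66 in Suz12delta and 0.49 in Eednull, from ESC levels that differed between the lines. Of the fibroblast markers in Eednull, 5 were at least 2-fold lower and 2 at least 2-fold higher at day 5, and their part was not tested. With 1 library at each point, a difference between lines in these changes has no test.

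The mean change over E14, Suz12delta and Eednull was tested with limma on log2(FPKM + 0.1), with the line as a block, over 18013 genes that reached 1 FPKM in some of these 6 libraries. The test was added after the values had been seen, and it takes lines of unlike genotype as replicates of a stage. Differences between lines in their change from ESC to day 5 therefore enter its error, while the block takes up differences in level. Bmi1 rose at day 5, by 2.12 ± 0.31 (mean log2 change ± SE, 3 of 3 lines higher, limma with Benjamini-Hochberg adjusted p = 0.0183). It was the 1 gene of 9 called higher, against 2.02% of all genes, and 0 of 9 were called lower, against 1.85%. At an unadjusted p under 0.05 there were 6 of 9, against 21.9% of all genes. Of these, Cbx2 was at 1.68 ± 0.41 (limma adjusted p = 0.0677), Phc1 at -1.74 ± 0.45 (0.0759), Cbx8 at 2.29 ± 0.63 (0.0882), Ring1 at 1.31 ± 0.40 (0.113) and Cbx7 at -0.95 ± 0.34 (0.161), each with 1 direction in all 3 lines but above the threshold of 0.05. Cbx6 (0.23 ± 0.30), Rnf2 (0.22 ± 0.30) and Pcgf2 (0.12 ± 0.35) had mean changes smaller than their standard errors. Without the block Bmi1 missed the threshold (limma adjusted p = 0.0590) and 0 of 9 were called, and without Suz12delta it was at 0.0791 and Phc1 was the gene called (0.0413). Over the alternatives the limma adjusted p of Bmi1 ran from 0.000114 (without E14) to 0.0791 and that of Phc1 from 0.00650 to 0.0706. Without E14, 4 were called, Cbx2, Cbx8 and Bmi1 higher and Phc1 lower, but 9.02% of all genes were called higher and 5.31% lower. Each fit that left out a line had 1 residual degree of freedom, against 2 in the main fit. In the fits without E14 and without Eednull, the error came from a trend over all genes and not from each gene's own spread. Their limma adjusted p-values, 0.000114 included, cannot be set beside those of the main fit. With all 8 libraries and no block 5 were called, Cbx2, Cbx8, Ring1 and Bmi1 higher and Phc1 lower. There 12.1% of all genes were called higher and 6.55% lower.

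Across all libraries, the ESC and day 5 values did not overlap for 6 of the 9 genes (Cbx2, Cbx6, Cbx8, Ring1, Bmi1 and Phc1), against 25.3% of the 18538 genes that reached 1 FPKM in some library. Without the Suz12delta ESC library, which stood apart in its fibroblast markers, Cbx7 joined them and the count was 7 of 9 against 37.4% of genes. Without CJ7 it was 6 of 9 against 28% of genes. These counts use values as deposited and were not repeated with scaling. For Cbx6 the margin was narrow, 13.7 FPKM in the highest ESC library and 14.2 FPKM in the lowest day 5 library. With 75th-percentile scaling Cbx6 was lower at day 5 than in ESCs in Suz12delta (log2 ratio -0.09), so its stages then overlap.

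Differences between wild-type lines give the only measure of how far ESC libraries vary without a PRC2 mutation, with background and batch included. Between CJ7 and E14 ESCs, over 15377 genes at 1 FPKM or more in either, the median absolute log2 ratio was 0.44 and its 90th percentile 1.44. Of the 8 genes that could be compared, 1 was called higher in CJ7 against 15.7% of all genes and 0 lower against 14.7% (18.2% and 11.5% with 75th-percentile scaling). As deposited, 6.69% of genes above 0 in both libraries were higher and 11.2% lower. The called gene was Cbx8 (1.57), and Cbx7 was next in size (-0.63). The other 6 were between -0.32 and 0.31.

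In ESCs, the mutant lines had less Cbx7 and more Cbx8 and Bmi1 than either wild-type line. Against E14, 2 of 9 genes were called higher in Suz12delta ESCs, with 18% of all genes higher, and 2 of 9 were called lower, with 22.8% of all genes lower. Genes above 0 in both libraries were higher in 13.7% and lower in 21.4%. The scaling to the 75th percentile turned the shares of all genes to 23.5% and 14% and moved their median from -0.28 to 0.07. Cbx8 (log2 ratio 3.10) and Bmi1 (1.12) were higher, and Cbx7 (-2.18) and Phc1 (-1.55) were lower, and all 4 kept their calls with this scaling (3.40, 1.48, -1.82 and -1.18). Against CJ7, Suz12delta was at 1.53 for Cbx8, 0.81 for Bmi1, -1.56 for Cbx7 and -1.42 for Phc1. The fibroblast markers were all higher in this library (median log2 ratio to E14 2.39), the 5 endoderm markers above 0 in both were each at least 2-fold higher (median 2.01), and its 10 ESC markers summed to 522 FPKM against 1233 FPKM in E14. The part of these in the ratios was not tested.

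In Eednull ESCs, 2 of 9 genes were called higher than in E14, against 22.4% of all genes, and 1 of 9 lower, against 11.9%. Without genes at 0 in either library these shares were 11.5% and 9.71%. Cbx8 (2.12) and Bmi1 (1.63) were higher, and Cbx7 was at -1.09, which passed 2-fold as deposited and stood at -0.92 with 75th-percentile scaling. Against CJ7, which was prepared in the same batch as Eednull ESC, Bmi1 was at 1.32, Cbx8 at 0.55 and Cbx7 at -0.46. Bmi1 was thus called in Eednull ESCs against both wild-type lines. Cbx8 was called against E14 only, and the CJ7 value of Cbx8 was itself 4.44 times that of E14. Fibroblast markers were higher in this library too (12 of 12 above E14, 6 of them at least 2-fold, median 1.15). All 5 endoderm markers above 0 in both libraries were at least 2-fold higher (median 3.93), with a sum of 24.0 FPKM against 1.11 FPKM in E14, and 3 of the 10 ESC markers were at least 2-fold lower (median -0.58). The part of these in the ratios was not tested.

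The comparisons of the mutant ESCs share their wild-type libraries, so that their directions are not independent of each other. Both mutant ESC libraries were above both wild-type libraries for Cbx8 and Bmi1 and below both for Cbx7, Ring1, Rnf2, Pcgf2 and Phc1. Of 16822 genes that reached 1 FPKM in some ESC library, 18% lay above both and 24.4% below both. For Rnf2 in Eednull the margin was 21.3 against 21.6 FPKM and the direction flips with either scaling. For 0 of the 9 genes was the difference 2-fold or more in all 4 of these comparisons, against 4.77% of those genes.

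At day 5, the hypomorph Suz12GT was close to E14 in its PRC1 genes except for Cbx7. Of the 9 genes 0 were called higher, against 16.8% of all genes, and 1 lower, against 4.4%. These shares were 13.2% and 2.42% among genes above 0 in both libraries. Cbx7 was at 6.49 FPKM in Suz12GT and 18.8 FPKM in E14, which share a background, a log2 ratio of -1.52 (2.89 times lower). The other 8 genes were between -0.19 (Cbx8) and 0.51 (Bmi1). Its motor neuron markers summed to 235 FPKM against 228 FPKM in E14, but 6 of the 9 above 0 were lower than in E14, and Olig2, Pax6 and Neurog2 were at least 2-fold lower. Of 7 ESC markers above 0 in both libraries, 6 were at least 2-fold higher in Suz12GT (median 2.34), as were 8 of 11 fibroblast markers (median 1.87) and all 4 endoderm markers compared (median 2.28). The part of these in the ratios was not tested.

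In Suz12delta at day 5, 0 of 9 genes were called higher than in E14, against 26.6% of all genes, and 1 lower, against 9.52%. Of genes above 0 in both libraries, 20.9% were higher and 7.76% lower. The gene called was again Cbx7 (-1.13), and Bmi1 (0.98), Cbx8 (0.86), Phc1 (0.75) and Cbx2 (0.61) were higher by less than 2-fold. In Eednull at day 5, 1 of 9 genes was called higher, against 21.6% of all genes, and 0 lower, against 11.3%. Without genes at 0 in either library these shares were 16.8% and 9.55%. The gene called was Bmi1 (1.09), and Ring1 (-0.79) was the lowest, while Cbx7 was at 0.13. Eednull, whose H3K27me3 is also nearly lost, thus had a Cbx7 level near that of E14, and with 1 library each its difference from the Suz12 lines has no test. In both of these day 5 libraries all 9 motor neuron markers above 0 were at least 2-fold lower than in E14 (median log2 ratio -3.31 in Suz12delta and -5.71 in Eednull), at sums of 20.7 and 19.5 FPKM. Fibroblast markers were higher (10 of 11 at least 2-fold in Suz12delta and 9 of 11 in Eednull), as were all 4 endoderm markers compared, and the part of these in the ratios was not tested.

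**Figure D4:**
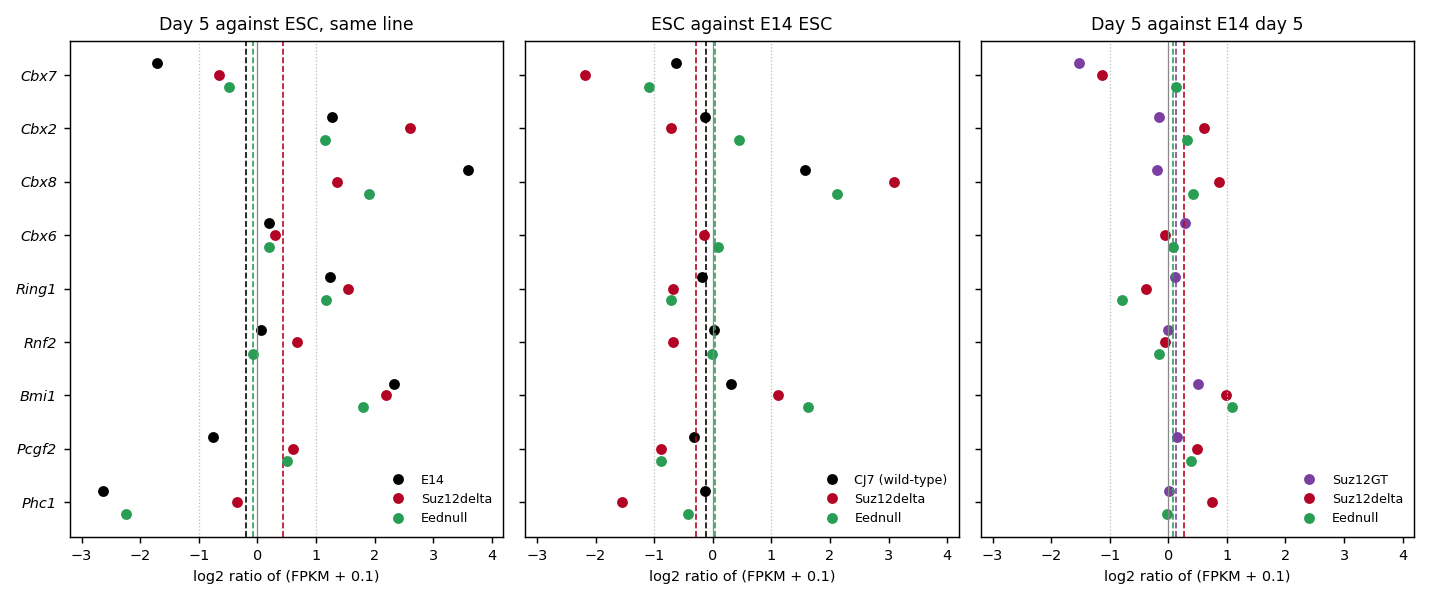
Log2 ratios of FPKM + 0.1 (horizontal axes) for the 9 PRC1 genes (rows): day 5 against ESC within a line (left), ESC lines against E14 ESC (middle) and day 5 lines against E14 day 5 (right), 1 point per comparison of 2 libraries. Dashed lines mark the median of all genes in the comparison of that colour and dotted lines mark 2-fold; Cbx2, Cbx8, Ring1 and Bmi1 are right of the 2-fold line in all 3 lines at left, Cbx6 has no CJ7 point because it is listed at 0, and Cbx7 is the only gene beyond 2-fold on the lower side at right (-1.52 in Suz12GT and -1.13 in Suz12delta).

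Beyond the 9 genes, 32 further genes of PRC1, its opposing H2A deubiquitinases and the HP1-type Cbx genes were counted. In E14, 5 of 32 were called higher at day 5 and 7 of 32 lower, against 18.3% and 25.8% of all genes, with a median of -0.07. Among canonical subunits Phc2 (2.53) was called higher and Phc3 (0.27) was not called. Of the proteins that take the place of CBX in variant PRC1, Yaf2 was at 10.1 FPKM in E14 ESCs and 29.7 FPKM at day 5 (1.55), and Rybp went the other way, from 36.9 to 12.6 FPKM (-1.55). In Eednull both moved in the directions seen in E14 but within 2-fold, Rybp from 32.0 to 22.7 FPKM (-0.49) and Yaf2 from 12.2 to 20.8 FPKM (0.77). In Suz12delta both were higher at day 5, Rybp at 11.5 FPKM in ESCs and 35.7 FPKM at day 5 and Yaf2 at 9.84 and 23.5 FPKM.

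Other variant subunits called higher in E14 at day 5 were Bcorl1 (1.91), Auts2 (1.14), which joins the variant complexes of PCGF3 and PCGF5, and Hdac2, a histone deacetylase that was just past 2-fold (62.6 against 126 FPKM). Those called lower were Pcgf5 (-1.53), L3mbtl2 (-1.38), Usp7 (-1.33), Wdr5 (-1.26) and Mga (-1.19), of which L3mbtl2 and Mga belong to the complex of PCGF6, and the deubiquitinase cofactor Asxl1 (-1.14). Pcgf6 itself was at -0.99, just under 2-fold, Pcgf1 was at -0.50, Pcgf3 at 0.73 and Kdm2b, which brings variant PRC1 to CpG islands, at -0.01. The HP1-type genes Cbx1 (-0.18), Cbx3 (0.14) and Cbx5 (0.32), whose proteins read H3K9 methylation and not H3K27me3, were within 2-fold, so that the large Cbx changes in E14 were among the Polycomb-type genes.

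In Suz12delta 6 of the 32 were called higher at day 5 and 1 lower, against 26.9% and 12.6% of all genes. With 75th-percentile scaling 3 were higher and 1 lower, against 17.7% and 17.2%, since Yaf2, E2f6 and Cbx1 came under 2-fold. In Eednull 2 were called higher and 2 lower, against 18.4% and 24.8% of all genes, and 1 and 2 with scaling. Phc2 and Auts2 were called higher and Pcgf5 lower in E14, Suz12delta and Eednull, although Auts2 in Eednull was only just past 2-fold and slipped under 2-fold with scaling. Against E14 ESCs, 2 of 32 were called higher and 8 lower in Suz12delta, against 18% and 22.8% of all genes, but with 75th-percentile scaling 5 were higher and 3 lower, against 23.5% and 14%. In Eednull ESCs 0 were called higher and 0 lower, against 22.4% and 11.9% of all genes, with Bcor and Bcorl1 just past 2-fold after that scaling. In CJ7 1 was higher and 1 lower, against 15.7% and 14.7%. The HP1-type genes were all lower in Suz12delta than in E14 ESCs, with Cbx1 at 28.2 against 74.2 FPKM, Cbx3 at 26.7 against 50.2 FPKM and Cbx5 at 31.2 against 53.3 FPKM. At day 5, 0 of 31 were called in either direction in Suz12GT against E14, against 16.8% higher and 4.4% lower of all genes, with Skp1a left out because it was listed at 0 in Suz12GT. Against the same library, 3 of 32 (Pcgf5, Rybp and Bcor) were called higher and 0 lower in Suz12delta, against 26.6% and 9.52% of all genes. Bcor came under 2-fold with 75th-percentile scaling (0.89), and with the median of ratios Pcgf5 did too (0.99) and Hdac2 was called lower (-1.05). In Eednull 0 of 32 were called in either direction, against 21.6% and 11.3% of all genes.

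The genes whose profile over the 8 libraries was most like that of each PRC1 gene were found by Pearson correlation of log2(FPKM + 0.1) among 10629 genes that reached 5 FPKM in some library and with a log2 range of at least 1. These points share libraries and stages, and the values are a description only. Cbx7 was most like Rpl12-ps1 (r = 0.979 over 8 libraries), Gm6285 and Rpl6, of which the first is a ribosomal protein pseudogene. Cbx2 was most like Phrf1 (0.993), Dclre1b and Fgfrl1, and Cbx8 like Tor1aip1 (0.988), Ttc39c and Pcdh18. Ring1 was most like Samd10 (0.990), Shd and Dynll2, and Rnf2 like Fbxo45 (0.998), Cep78 and Mark3. Bmi1 was most like Rhobtb1 (0.992), Gm5946 and Tmem42, Pcgf2 like B3gntl1 (0.963) and Man2c1, and Phc1 like Actn3 (0.995), Mrpl24 and Ebna1bp2. The genes most like Cbx6, led by Fbxl5 (0.994), Gm14117 and Gm7110, were set by the 0 in CJ7, and without CJ7 they were Gm11578 (0.980 over 7 libraries), Sorbs2 and Nap1l2.

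Among the PRC1 genes themselves, Cbx8 was most like Bmi1 (r = 0.91 over 8 libraries), and it ran opposite to Phc1 (-0.87) and Cbx7 (-0.83). Phc1 ran opposite to Phc2 (-0.94). The 8 points of each correlation come from the same ESC and day 5 libraries.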

How the data were processed

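The 8 RNA-seq libraries analysed each stood for a condition alone. The authors deposited FPKM values, for which reads were aligned with Bowtie 0.12.7 and Tophat 1.3.2 to NCBI build 37 and summarised over Ensembl-based gene models with Cufflinks 1.2.1 and Cuffdiff, with correction for sequence bias and for reads that map to several places. Such reads are shared between loci by estimate, and Cbx6, which shares its locus in the table, is uncertain. Values were used as deposited. A pseudocount of 0.1 and a minimum of 0.1 FPKM were applied, 2-fold was the call, and an exact 0 left a named gene without a ratio. The shares of all genes past 2-fold kept genes with an exact 0 in 1 library, unless stated. Named genes were the 9 members and a fixed set of subunits from the 32 further genes. Others of the 32 were named if at least 2-fold changed in E14 differentiation. The same held for those at least 2-fold to one side in both mutant ESC lines against both wild-type lines. It also held for those at least 2-fold to one side of E14 in all 3 mutant day 5 libraries. Bcor, E2f6 and Skp1a met none of these rules and were named where a count turned on them. Some genes are not reported here. Members and lists were chosen with earlier results of these data known.

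Read depth is unknown. In a search of low values for steps worth 1 read, no more than 1.92% of 416 low genes shared the commonest ratio, so no counting interval is given for any value. Of 36808 identifiers, 36104 were found in GENCODE vM1. The change from ESC to day 5 over the 3 lines with both stages was tested with limma 3.58.1 in R 4.3.3, with the line as a block and a variance trend, on log2(FPKM + 0.1) of genes that reached 1 FPKM, with Benjamini-Hochberg adjustment. This test was not in the plan, which had none. Alternatives were another pseudocount, minimum, scaling, wild-type ESC line or gene sum. The calculations were tested on simulated data with Python 3.11.15, NumPy 2.4.6 and pandas 2.3.3, and figures were drawn with matplotlib 3.10.9.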

Additional observations from a re-analysis of the deposited data

Results flagged for a closer look

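Between ESC and day 5, 4 genes changed in opposite directions in E14 and Suz12delta by at least 1.5-fold each, with 1 library at each point, and the difference between the lines was not tested. Rybp, a subunit of variant PRC1, had a log2 ratio of 1.62 in Suz12delta and -1.55 in E14 (1.15 and -1.43 after scaling by the median of ratios). Asxl1, a cofactor of the H2A deubiquitinase, was at 0.71 and -1.14 (0.25 and -1.02 scaled). Pcgf6 was at 0.93 and -0.99 (0.46 and -0.88 scaled). Pcgf2, the one gene of the 9 that met this condition, was at 0.61 and -0.76 (0.14 and -0.64 scaled). Rybp stayed beyond 2-fold in both lines with either scaling, while the other 3 were under 1.5-fold in Suz12delta with either scaling, so that 1 of the 4 still met this condition. In each of the 4 the Suz12delta ESC level was below that of E14 ESCs, in a library whose fibroblast markers summed to 594 FPKM against 98.7 FPKM in E14, and the part of this in the change was not tested.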

How the results depend on the processing

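The limma test of the stage change, paired by line (a replicate block), called 1 of the 9 genes higher and 0 lower. Without the replicate block it called 0 and 0, with all 8 libraries and no block 4 and 1, and with the median of ratios 1 and 1. Of all genes these fits called 2.31% higher and 1.27% lower, 12.1% and 6.55%, and 1.65% and 2.3%. Leaving out 1 line at a time gave 0 to 3 higher and 0 to 1 lower. In those fits 0.11% to 9.02% of all genes were called higher and 0.444% to 5.31% lower. Without E14 or without Eednull, the error did not use each gene's own spread. This test and its alternatives were added after the data were seen. Of 221 recomputed counts and shares, 190 moved by less than 1.5-fold and 31 by more. Of 502 recomputed ratios of single genes 13 moved, all of Cbx7 or Cbx8, under another pseudocount or with CJ7 as the wild-type ESC. In Suz12delta at day 5 against ESC, the count of genes called lower was 1 and not 0 with either scaling. In Suz12delta ESCs against E14, the count called higher was 1 and not 2 with a pseudocount of 1, and also 1 against CJ7. In Eednull ESCs the count called higher was 1 and not 2 with a pseudocount of 1, a minimum of 1 FPKM or CJ7, and the count called lower was 0 and not 1 with either scaling or CJ7. In CJ7 against E14 the count called higher was 0 and not 1 with a pseudocount of 1 or a minimum of 1 FPKM. These changes come from Cbx8, Cbx7 and Bmi1, which lie near 2-fold or, for Cbx8, at low FPKM: its E14 change was 1.72 with a pseudocount of 1, 4.25 with 0.01 and 2.03 from CJ7, and that of Cbx7 from CJ7 was -1.08. The Cbx7 share was 48.0% in E14 ESCs when taken over log2(FPKM + 1), and without Cbx6 it was 74.4% in Suz12delta ESCs and 34.4% in Suz12GT at day 5. Among all 6 Pcgf genes Pcgf2 held 45.8% in E14, 46.5% in CJ7, 34.2% in Suz12delta and 29.3% in Eednull ESCs, and 32% in E14, 30.7% in Suz12GT, 33.0% in Suz12delta and 31.1% in Eednull at day 5, since more genes share the sum. Leaving out the Suz12delta or the CJ7 ESC library from the count of genes without overlap between stages was added after the data were seen. With unknown depth and 1 library per condition, differences within the range seen between CJ7 and E14 ESCs cannot be separated from variation between lines and libraries. A further planned sum of Cbx genes is left out.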
